A study of Mus musculus with 3 samples.

Results

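The Spns2 locus was taken as the 90.0-kb window of mouse chromosome 11 from 72240000 to 72330000 (build mm9, counted from 1), and its members were all marked regions of the deposited peak lists that share at least 1 bp with it. It held 26 of the 93413 H3K27ac regions and 15 of the 155027 H3K4me1 regions of the genome. The window was chosen by its marked regions, whose density was known from earlier results of these data, so the counts, folds and widths below describe it and were not tested. The lists come from hematopoietic stem cells, isolated as SP-KSL-CD150+ cells from bone marrow of C57BL/6 mice aged 24 months. H3K27ac and H3K4me1 were each profiled by chromatin immunoprecipitation sequencing in 1 library, and an input library went with them that was not analysed here. The labels call each library a technical replicate of the first biological replicate, and with 1 library per mark no difference could be tested against replicate error. No younger cells are among the samples used here. How many mice gave the cells is not given in the sources used here, and in such a bulk sample a mark in fewer cells and less of the mark per cell cannot be told apart.

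Spns2 encodes a membrane transporter that releases sphingosine 1-phosphate, a signalling lipid, from cells. In mice, Spns2 of the vessel lining supplies the lipid gradient along which lymphocytes leave lymphoid organs, and receptors for the same lipid on blood progenitors take part in their movement between marrow, blood and lymph. H3K27ac, an acetylation of histone H3, is found at active promoters and enhancers. H3K4me1 is found across enhancers and on the shoulders of active promoters, and is usually low at the start site itself, where trimethylation takes its place.

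Gene positions could not be set against the regions, because the gene table used here describes another build, GRCm38.p6, and no mm9 annotation was used. That the window holds Spns2 is taken from the definition of the locus, and no region below is called a promoter, an intron or an intergenic element. The gene table gives only the order of neighbours. On the lower-coordinate side of Spns2 lie Smtnl2, a smoothelin-like gene, Ggt6, of the gamma-glutamyltransferase family, and Mybbp1a, which encodes a nucleolar protein that binds the transcription factor Myb and whose listed span overlaps that of Spns2. On the other side the table gives Gm40194, a long non-coding RNA whose span overlaps that of Spns2, then the paralog Spns3 and the long non-coding RNA Gm51906.

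One Spns2 start is represented in the RefSeq promoter table (build GRCm38.p6), and its upstream 250 bases are shown because they are the sequence of the gene at hand. The start lies inside the listed span of Spns2 and not at its 5′ end. The stretch is chr11:72475028-72475277 on the minus strand of GRCm38.p6, a build whose positions do not correspond to the mm9 numbers of the regions, and whether a mark covers it was not determined. Capitals mark matches to GATAA, letters bound by GATA factors, and to TGTGGT, letters bound by RUNX factors, both found on the opposite strand.
Spns2: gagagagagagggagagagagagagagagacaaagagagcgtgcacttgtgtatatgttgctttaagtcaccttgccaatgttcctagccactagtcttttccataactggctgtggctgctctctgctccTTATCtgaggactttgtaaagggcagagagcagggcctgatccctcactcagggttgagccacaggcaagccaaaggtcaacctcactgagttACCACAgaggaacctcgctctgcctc
The GATAA match begins 119 bases before the start, and 22.6% of all 32851 upstream stretches of this length in the table hold such a match on either strand. The TGTGGT match begins 26 bases before the start, and 14.0% of the stretches hold one. The letters GGAA, bound by ETS factors, occurred 3 times and occur in 93.4% of stretches. CANNTG (66.2% of stretches) and CCAAT (33.8%) each occurred 1 time, and GGGCGG (32.7%) and TATAAA (12.4%) are not in this window. No match overlapped another. The stretch had a G and C content of 51.6%, against a median of 52.4% over the table, and 2 CG pairs against a median of 6. These matches describe the letters and not binding.

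The 2 marks covered the locus very unevenly. H3K27ac covered 25.8 kb (28.7%) and H3K4me1 49.7 kb (55.2%), and 22.5 kb carried both. H3K27ac stood alone on 3.34 kb (3.71%), H3K4me1 alone on 27.2 kb (30.2%), and 41.1% of the window had neither. A stretch is called without a mark where the list of that mark has no region, which does not show that the mark is absent. Of the acetylated length, 87.1% lay inside H3K4me1 regions, whereas 45.3% of the H3K4me1 length was acetylated. The longest gap without either mark ran from 72243542 to 72253817 (10.3 kb), and the next gaps were 3.72 kb from 72305584 to 72309301 and 3.68 kb from 72259991 to 72263673.

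**Figure D1:**
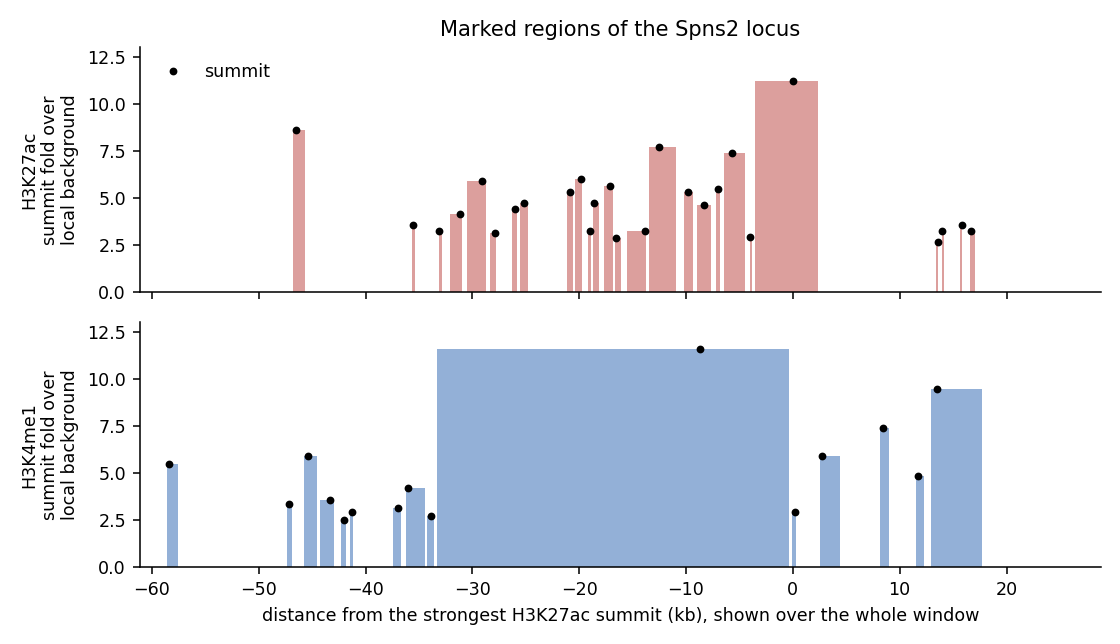
Regions of H3K27ac (upper) and H3K4me1 (lower) over the window, with distance from the strongest H3K27ac summit in kb on the horizontal axis and the authors' summit fold over local background on the vertical axis. Each bar spans a region, its height is the fold of the summit alone, and the dot marks the summit; 1 H3K4me1 region of 33.0 kb ends just before the strongest H3K27ac summit.

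The feature that dominated the locus was a single H3K4me1 region from 72267805 to 72300798, 33.0 kb wide. It ranked 4 by width among all 155027 H3K4me1 regions and was the widest on chromosome 11. Its summit, at 72292408, reached 11.6-fold over background with 55 reads (exact Poisson 95% interval 41.4 to 71.6), which placed it at rank 263 of the genome by fold. The fold is the authors' value from the peak caller and holds for the summit and not for the whole width. The interval, like all intervals here, covers counting error only. Without molecular identifiers some reads may be copies of 1 molecule, which would make the intervals of reads too narrow. Nor do these intervals allow for the summit being picked as the highest point of its region.

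This wide H3K4me1 region met 20 H3K27ac regions, which covered 62.5% of it. Among the 458 H3K4me1 regions of 10 kb or more, the median width was 12435 bp (quartiles 10938 and 14793 bp) and the median region met 7 H3K27ac regions (quartiles 5 and 9). The Spns2 region ranked 4 by width and 6 by the number of H3K27ac regions met, which wider regions meet more easily by position alone. Per 10 kb it met 6.06 H3K27ac regions, against a median of 5.30, rank 137 of 458. By the share of its length that was acetylated it ranked 91 of 458, against a median share of 45.7% (quartiles 30.5 and 59.4%). Its width and its number of acetylated regions were therefore near the top of the class, and its density of acetylated regions lay within the quartiles of 4.12 and 6.24.

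**Figure D2:**
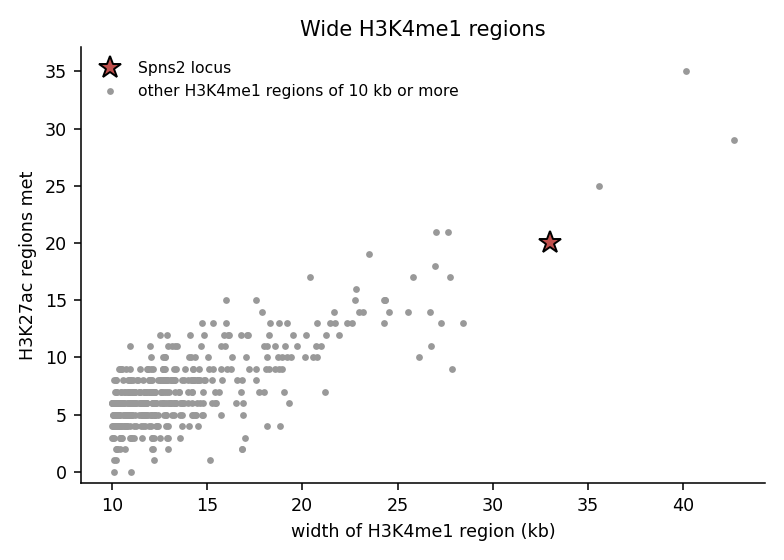
Width in kb (horizontal axis) and number of H3K27ac regions met (vertical axis) for the H3K4me1 regions of 10 kb or more. The star is the region of the Spns2 locus, at 33.0 kb and 20 H3K27ac regions, and 3 regions are wider.

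Only 3 H3K4me1 regions of the genome were wider. They lay on chromosome 8 from 124809158 to 124851815 (42.7 kb, 29 H3K27ac regions), on chromosome 14 from 26286879 to 26326992 (40.1 kb, 35 H3K27ac regions) and on chromosome 19 from 32326043 to 32361616 (35.6 kb, 25 H3K27ac regions). The Spns2 region was 62.5% acetylated, against 44.4%, 64.7% and 59.0% of the lengths of these 3. The next narrower region, on chromosome 8, was 28.4 kb wide and 21.1% acetylated.

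Inside the wide H3K4me1 region, acetylation was densest towards its higher-coordinate end. When its length was cut into 3 equal stretches, H3K27ac covered 44.8% of the first, 65.7% of the middle one and 77.1% of the last. The 8.48 kb acetylated in the last stretch include 3193 bp of 1 H3K27ac region that crosses its end. Without them the last stretch would hold less acetylated length than the middle one (7.23 kb). The rise from the middle to the last stretch therefore rests on that region. The summit of that region lies outside the stretch and is not among the summits counted next. The median fold of the H3K27ac summits was 4.28 in the first stretch (6 summits), 5.02 in the middle one (8 summits) and 5.34 in the last (5 summits), and the median summit reads were 13.5, 16.5 and 20. The ranges of fold overlapped between the stretches, from 3.13 to 5.91, from 2.87 to 7.68 and from 2.93 to 7.39. This split was made after the values had been seen.

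**Figure D3:**
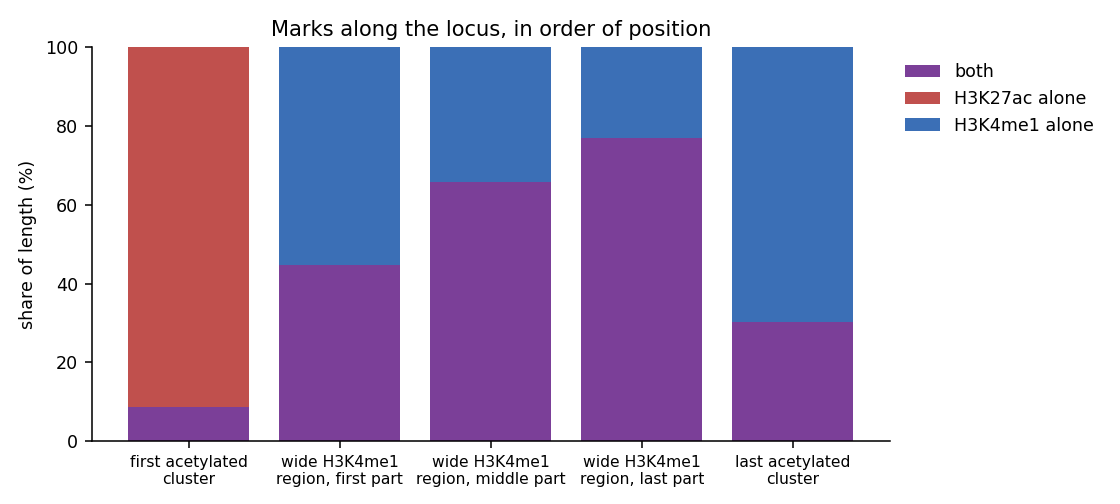
Share of length in percent (vertical axis) with both marks, H3K27ac alone or H3K4me1 alone, for the first acetylated cluster, the 3 equal stretches of the wide H3K4me1 region and the last acetylated cluster, in order of position. H3K27ac alone made up 91.3% of the first cluster, and the share with both marks was 44.8%, 65.7% and 77.1% in the stretches. The stretches are cut from an H3K4me1 region, so H3K27ac alone cannot occur in them. A further 2.30 kb of H3K27ac alone lie beyond the end of the wide region and are not shown.

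The acetylated regions in this stretch were separate and closely spaced. The 20 H3K27ac regions that met the wide H3K4me1 region lay a median of 417 bp apart, from 202 to 3650 bp, and their summits were a median of 1435 bp apart, from 371 to 4336 bp. The longest interruption, of 3.65 kb from 72276350 to 72279999, carried H3K4me1 throughout. Among the widest and strongest of them were a region from 72287648 to 72290232, which was 2585 bp wide with a summit of 7.68-fold and 25 reads (interval 16.2 to 36.9), and a region from 72294665 to 72296686, which was 2022 bp wide with 7.39-fold and 24 reads (interval 15.4 to 35.7). A narrower region from 72280746 to 72281365 reached 5.99-fold with 22 reads. The H3K4me1 summit at 72292408 lay inside an H3K27ac region of 4.64-fold (72292136 to 72293486), so the highest H3K4me1 and the highest H3K27ac of the locus were not at the same place. The H3K4me1 summit lay 8.74 kb before that of H3K27ac.

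The strongest acetylation stood at the border of the wide H3K4me1 region. This H3K27ac region ran from 72297606 to 72303470, was 5865 bp wide, and reached 11.2-fold at 72301146 with 37 reads (interval 26.1 to 51.0). Genome-wide it was rank 109 by width and rank 5538 by fold among 93413 regions. Among the 427 H3K27ac regions of 4 kb or more the quartiles of fold were 9.75 and 16.9, and this region lay between them. Its first 3193 bp lay in the wide H3K4me1 region and the next 238 bp held no called H3K4me1 region. A further 373 bp fell in a short H3K4me1 region from 72301037 to 72301409.

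That short H3K4me1 region held the acetylation summit and was weak, with 2.95-fold and 13 reads (interval 6.92 to 22.2). The last 2061 bp of the acetylated region, from 72301410 to 72303470, held no called H3K4me1 region. H3K4me1 came back 185 bp further on, in a region of 1928 bp from 72303656 to 72305583 with 5.90-fold and 27 reads. H3K4me1 was therefore present on both sides of this acetylated region and interrupted or weak under its higher-coordinate part. With only the H3K4me1 regions whose −log10 q reached 5, the short region dropped out and the summit lay outside H3K4me1.

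The second strongest H3K27ac region stood apart from the rest, 46.5 kb before the strongest summit. It ran from 72254338 to 72255477 (1140 bp) and reached 8.59-fold with 36 reads (interval 25.2 to 49.8), nearly as many reads as the strongest summit. The lower fold goes with a local background of 3.31 reads, 1.39 times the 2.38 reads that were the lowest at any H3K27ac summit. Its summit at 72254628 was the 1 H3K27ac summit of the locus outside H3K4me1, with H3K4me1 ending 372 bp before it and starting 751 bp after it. The flanking H3K4me1 regions reached 3.37-fold (72253818 to 72254256, 439 bp, 15 reads) and 5.90-fold (72255379 to 72256604, 1226 bp, 27 reads), and 99 bp of the second were shared with the acetylated region. Acetylation was then absent from the list for 10.1 kb, from 72255478 to 72265530, while 5 further H3K4me1 regions began in that gap.

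The last acetylated cluster lay 13.6 to 16.6 kb beyond the strongest summit and was the reverse in balance. A 4857-bp H3K4me1 region from 72314033 to 72318889 reached 9.48-fold with 44 reads (interval 32.0 to 59.1), rank 2598 of the genome by fold. The 4 H3K27ac regions inside it had summits of 2.66, 3.25, 3.55 and 3.25-fold with 8, 10, 11 and 10 reads, and were 190, 204, 204 and 502 bp wide. They covered 22.6% of it, against 62.5% of the wide region. The site with 8 reads has the fewest reads of any summit in the H3K27ac list, and the genome-wide lower quartile is 11 reads.

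Every H3K27ac region of the locus met H3K4me1, whereas most H3K4me1 regions met no H3K27ac. All 26 H3K27ac regions overlapped H3K4me1 by 1 bp or more (exact Clopper-Pearson 95% interval 86.8 to 100%), where 71.7% of H3K27ac regions did so genome-wide. The H3K27ac summit lay inside H3K4me1 in 25 of 26 regions (96.2%, interval 80.4 to 99.9%), against 58.2% genome-wide. These regions are not independent of each other, since 19 of the 25 summits lay in the same wide H3K4me1 region. Of the H3K4me1 regions, 5 of 15 (33.3%, interval 11.8 to 61.6%) met H3K27ac, and 33.6% did genome-wide, so by number the H3K4me1 regions were near the background. The H3K4me1 summit was acetylated in 3 of 15 regions (20.0%), against 16.8% genome-wide.

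The 10 H3K4me1 regions without H3K27ac included strong ones. The strongest ran from 72309302 to 72310107, was 806 bp wide and reached 7.37-fold with 34 reads (interval 23.5 to 47.5). By fold it was rank 3 among the H3K4me1 regions of the locus, and it lay in the 11.1-kb gap of H3K27ac from 72303471 to 72314552. The region from 72303656 (5.90-fold), described above, began in the same gap, as did one from 72312685 to 72313402 with 4.84-fold and 22 reads. At the other end of the window a region from 72242511 to 72243541 had 5.48-fold and 25 reads, and a region from 72256901 to 72258201 had 3.58-fold and 16 reads. The other 5 had 2.53 to 3.37-fold and 11 to 15 reads.

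By strength the regions of the locus were close to the genome as a whole, and the widest ones stood out. The median H3K27ac fold was 4.54 (quartiles 3.25 and 5.58), against 3.86 genome-wide (quartiles 3.25 and 5.32) and 4.14 on chromosome 11. The median H3K4me1 fold was 4.21 (quartiles 3.05 and 5.90), against 4.12 genome-wide (quartiles 3.16 and 5.69) and 4.21 on chromosome 11. Summits of 5-fold or more numbered 10 of 26 for H3K27ac (38.5%, interval 20.2 to 59.4%, genome-wide 28.8%). For H3K4me1 they numbered 6 of 15 (40.0%, interval 16.3 to 67.7%, genome-wide 34.1%). Regions of 1 kb or more numbered 8 of 26 for H3K27ac (30.8%, interval 14.3 to 51.8%, genome-wide 15.2%). For H3K4me1 they numbered 7 of 15 (46.7%, interval 21.3 to 73.4%, genome-wide 36.0%). Each of these intervals includes the genome-wide share, but the regions are not independent and the window was chosen by its marked regions. The intervals are therefore descriptions and not tests. Median widths were 541 bp for H3K27ac, against 355 bp genome-wide, and 822 bp for H3K4me1, against 687 bp.

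**Figure D4:**
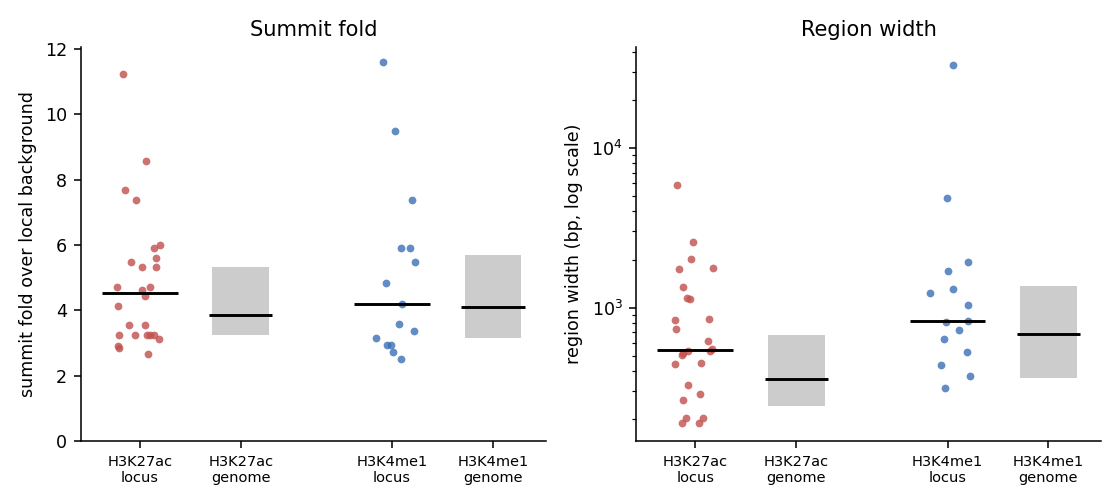
Summit fold over local background (left) and region width in bp on a log scale (right) for each H3K27ac and H3K4me1 region of the locus (dots, with the median as a line), beside the genome-wide quartile range (grey bar) and median (line). The median H3K27ac fold is 4.54 at the locus against 3.86 genome-wide, and the widest H3K4me1 region, of 33.0 kb, lies far above the other dots.

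The local background that enters each fold was raised for some members. The genome-wide level was taken as the lowest background computed at any summit of the mark. The local background was more than 1.1 times that level at 9 of 26 H3K27ac summits (34.6%, interval 17.2 to 55.7%, genome-wide 24.2%). For H3K4me1 it was so at 0 of 15 summits (interval 0 to 21.8%, genome-wide 34.7%). The H3K4me1 interval leaves out the genome-wide share, but with linked regions this is a description and not a test. The highest, 1.78 times, belonged to an H3K27ac region from 72285609 to 72287351 that was 1743 bp wide and had 3.23-fold with 16 reads. Its part in the low fold was not tested. Summits of the locus held a median of 15 reads for H3K27ac, from 8 to 37, and 19 reads for H3K4me1, from 11 to 55, against genome-wide medians of 13 and 20.

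Against windows of the same length, the locus stood out more by length under the marks than by number of regions. In 29297 windows tiled over the chromosomes and not touching the locus, 77 (0.263%) had as much H3K27ac length, and the locus would rank 78 among them, against a median of 295 bp per window. For H3K4me1 length 125 windows (0.427%) had as much, and for the length with both marks 73 (0.249%). By number of regions, 211 windows (0.720%) had 26 or more H3K27ac regions and 3352 (11.4%) had 15 or more H3K4me1 regions. Within chromosome 11 alone, a comparison added after the values had been seen, 6 of 1350 windows had as much H3K27ac and 12 as much H3K4me1. Of the 77 windows with as much H3K27ac, 48 also had as much H3K4me1. The 77 windows had medians of 55.1 kb of H3K4me1 and 32 H3K27ac regions. The locus window was chosen by its marked regions and holds its clusters whole, whereas tiled windows can cut through theirs. These ranks and shares therefore favour the locus.

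**Figure D5:**
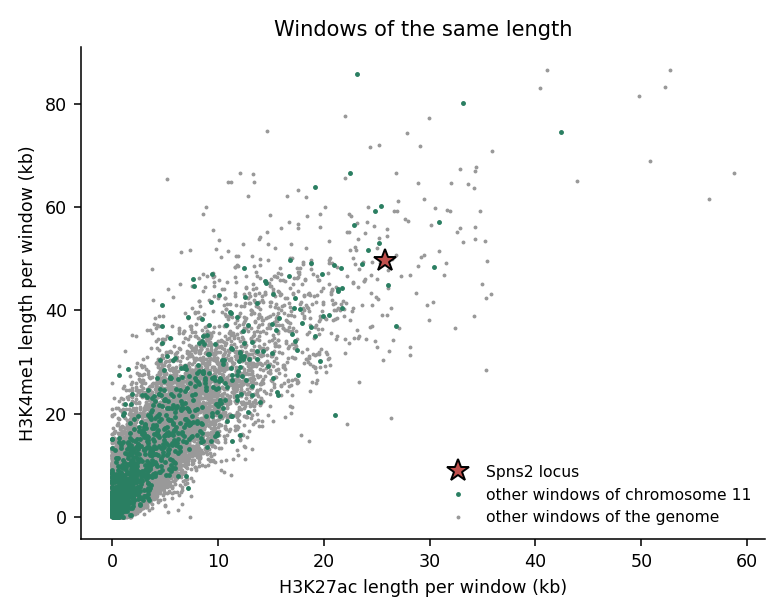
Length under H3K27ac (horizontal axis, kb) and under H3K4me1 (vertical axis, kb) in windows of the same length as the locus. The star is the Spns2 locus at 25.8 and 49.7 kb, green dots are other windows of chromosome 11 and grey dots other windows of the genome.

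Joining H3K27ac regions over gaps of up to 12500 bp, a usual way to outline large enhancer domains, put all 26 H3K27ac regions into 1 domain from 72254338 to 72318194. It spanned 63.9 kb and ranked 126 of 30221 domains by acetylated length, which is within the 302 domains of the top 1%, and 16 of 1785 on chromosome 11. Acetylation covered 40.5% of its span, against a median of 29.9% among the 302 domains, whose median span was 89.0 kb and whose median number of regions was 30. With gaps of up to 5 kb the domain split into 3, and the central part, from 72265531 to 72303470, held 21 regions over 37.9 kb, was 62.2% acetylated and ranked 67 of 45758.

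The densely marked stretch ended well inside the window. No marked region crossed an edge of the window. The first H3K27ac region inside began 14.3 kb from the lower edge and the last ended 11.8 kb from the upper edge. The nearest H3K27ac region outside on the lower side ran from 72231666 to 72232216 (551 bp, 5.61-fold, 18 reads), and on the upper side from 72351278 to 72352083 (806 bp, 5.32-fold, 17 reads). For H3K4me1, the first region inside lay 2.51 kb from the lower edge and the last 11.1 kb from the upper edge. The nearest outside ran from 72231885 to 72232770 (886 bp, 4.63-fold) and from 72332165 to 72333507 (1343 bp, 2.86-fold).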

How the data were processed

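Both deposited narrowPeak lists were used, 1 per mark, each called on 1 library. The submitters' processing notes name mm9, MACS2 2.0.10.20131216 and Bowtie2 2.0.6; the sources used here do not give the caller's options, its control or the handling of duplicates. Per region, the authors deposited a fold (summit pileup as a ratio to local background), the −log10 p and −log10 q of the summit, and a score, which is the −log10 q times 10 without decimals and was left out. Summit reads and local background were computed from fold and −log10 p, with fold taken as (reads + 1)/(background + 1) and p as the Poisson probability of more reads. A whole number of reads gave the p within 0.001 on the −log10 scale at all 93413 H3K27ac and 155027 H3K4me1 summits, but the formulas are assumed. Library totals are unknown.

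Regions met when they overlapped by 1 bp or more. Windows were tiled from position 1 up to the last region of each chromosome, and windows touching the locus were left out. Regions were named by a rule: in each mark the 5 of highest fold and the 3 widest, up to 5 without the other mark, the longest gaps and those at the edges. Others named were chosen after their values were seen. The members and lists were chosen with earlier results of these data known. The alternatives changed the q threshold, the overlap rule, the window, the joining of regions and the ranking. Calculations were tested on simulated data. For reads and background the simulation used the same assumed formulas, so it cannot check the formulas themselves. Software was matplotlib 3.10.9, scipy 1.17.1, pandas 2.3.3 and numpy 2.4.6 under Python 3.11.15.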

Additional observations from a re-analysis of the deposited data

How the results depend on the processing

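Of 37 alternative values, 12 moved, by a factor over 1.5 (counts, lengths, ranks) or by leaving the counting interval (shares). The number of H3K27ac regions (26 as reported) was 14 when the −log10 q had to reach 5, 5 when it had to reach 10, and 7 with regions joined over 1 kb. The number of H3K4me1 regions (15 as reported) was 8, 6 and 7 under the same settings. When the −log10 q had to reach 10, the H3K27ac length fell to 12.2 kb, against 25.8 kb, and the share of H3K27ac summits inside H3K4me1 to 60.0% (3 of 5), against 96.2%; fewer regions enter by construction. With gaps of up to 5 kb the central part alone, of 21 regions, ranked 67 of 45758, against 126 of 30221 for the whole domain. These are different stretches ranked in differently cut sets. By fold times width the domain ranked 198, and the cause of that was not tested. Ranks on chromosome 11 alone, added after the values were seen, were 7 for H3K27ac and 13 for H3K4me1 length, over fewer windows. The share of H3K4me1 regions that met H3K27ac (33.3%, 5 of 15) was 53.3% (8 of 15) with regions within 1 kb and 2 of 8 regions when the −log10 q had to reach 5, and its interval is too wide to tell these apart. The share of H3K27ac regions that met H3K4me1 was 96.2% (25 of 26) when the overlap had to reach 50% of the narrower one, and 100% under the other settings tried. Widening or narrowing the window by 10 kb on each side gave 27 and 26 H3K27ac and 19 and 14 H3K4me1 regions. The lowest summits called held 8 reads for H3K27ac and 10 for H3K4me1, and a part of depth in which sites are missing was not tested. No paired analysis was possible because there was a single library of either mark.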

Other observations

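The windows of the same length beside the locus carried much less of both marks. H3K27ac covered 25.8 kb at the locus, against 1.41 kb in the window before it and 7.18 kb in the window after it, and H3K4me1 covered 49.7 kb, against 10.7 and 25.5 kb. The number of H3K4me1 regions differed less, with 15 at the locus against 11 and 17. The second window after the locus held 27 H3K4me1 regions over 17.8 kb and 6 H3K27ac regions over 3.84 kb, and its widest H3K4me1 region was 2.77 kb. Higher acetylation summits stood nearby in windows with little marked length. The third window before the locus reached 28.1-fold for H3K27ac with 3.51 kb acetylated, and the fourth window after it 29.8-fold with 2.51 kb acetylated, against 11.2-fold with 25.8 kb at the locus.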
